A study of Arabidopsis thaliana with 8 samples.

Results

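The comparison described here is the loss of XRN4 in plants that already lacked URT1. Small RNA libraries of *urt1-1 xrn4-3* plantlets (2 libraries) were set against those of *urt1-1* plantlets (2 libraries), that is 4 of the 8 libraries of the series, and all loci of the table annotated as mRNA were compared. Of 24859 such loci, 24722 held enough reads to be tested. The plants were of the Col-0 accession of *Arabidopsis thaliana*, both mutations are T-DNA insertions, each represented by a single allele, and both genotypes compared carried *urt1-1*. The other libraries came from *xrn4-3* and WT plantlets (2 each) and were used to ask whether XRN4 loss acted in the same way where URT1 was present. All plantlets had grown in vitro for 24 days with 12 h of light at 22 °C and nights at 18 °C, and whole plantlets were extracted, so that fewer cells holding a small RNA and less of it per cell cannot be told apart.

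URT1 is the terminal uridylyltransferase that adds uridines to deadenylated mRNAs, and XRN4 is the main cytosolic exoribonuclease that degrades uncapped mRNAs from their 5′ end. Aberrant mRNAs that escape decay can be copied into double-stranded RNA by RNA-dependent RNA polymerases and cut by Dicer-like proteins into small interfering RNAs (siRNAs), which Argonaute proteins use to silence matching transcripts. XRN4 is also known as EIN5, from its role in the ethylene response. RNA of 18 to 30 nt was taken from a gel for the libraries, trimmed reads somewhat shorter than this were also kept for mapping, and a count at an mRNA locus does not measure the mRNA. The table gives no read length or strand, so that siRNAs and degradation fragments were counted together.

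The *urt1-1 xrn4-3* libraries held 14740477 and 30064224 counted reads, against 6927828 and 6045353 in *urt1-1*, and the common biological coefficient of variation was 0.325. Profiles of the 2 libraries of a genotype correlated at r = 0.937 in *urt1-1 xrn4-3* and 0.944 in *urt1-1* (log2 CPM over 24722 loci). The *urt1-1* libraries were no closer to each other than to WT. With WT replicates 1 and 2, *urt1-1* replicate 1 correlated at 0.962 and 0.953, and *urt1-1* replicate 2 at 0.947 and 0.959. *xrn4-3* replicate 2 stood apart: it correlated at 0.929 and 0.921 with the *urt1-1 xrn4-3* libraries and at 0.904 with *xrn4-3* replicate 1, and the counts of calls in *xrn4-3* against WT and of loci shared with it are also given without it. The samples are labelled biological replicates, a term the study uses for plants of a genotype raised at separate times, and p-values measure only the spread between these samples. Small RNAs at the mutated loci cannot check the genotypes. At *XRN4* they amounted to 7.51 and 6.25 CPM (read counts scaled to the counted reads of each library, with TMM factors) in *urt1-1 xrn4-3* and 12.4 and 11.1 CPM in *urt1-1* (log2 fold change −0.79 ± 0.39 (SE), adjusted p = 0.227, edgeR's likelihood ratio test). *URT1* had 9.19 and 5.94 CPM in *urt1-1 xrn4-3* and 5.93 and 8.04 CPM in *urt1-1*, which overlapped (log2 fold change 0.11 ± 0.89, adjusted p = 0.963, edgeR's likelihood ratio test), whereas *xrn4-3* replicate 2 held 271 CPM there and *xrn4-3* replicate 1 14 CPM.

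Loss of XRN4 without URT1 raised small RNAs at 2066 loci (8.36% of those tested) and lowered them at 227 (0.918%), at an adjusted p under 0.05 in edgeR's likelihood ratio test. In simulated data both of edgeR's tests called more unchanged loci than the threshold sets, the likelihood ratio test more so. Those data held far fewer changed loci than were called here, as many raised as lowered. The size of the excess need not carry over to these counts. The stricter quasi-likelihood test called 1482 raised loci (5.99%) and 70 lowered loci (0.283%), all of them among the 2066 and the 227. At an unadjusted p under 0.05 the tests called 19.9% and 19% of loci in either direction. The median change over the raised loci was 2.06 on the log2 scale, with quartiles of 1.64 and 2.74, against 0.02 for all loci tested, and 402 exceeded 8-fold, 124 exceeded 16-fold and 33 exceeded 32-fold. Their median level was 17.64 CPM in *urt1-1 xrn4-3* and 4.196 CPM in *urt1-1*. Both *urt1-1 xrn4-3* libraries lay above both *urt1-1* libraries at 2065 of the raised loci, and at 29.8% of all loci tested. The raised count was 1160 without *urt1-1 xrn4-3* replicate 1, 778 without *urt1-1* replicate 1 and 1200 without *urt1-1* replicate 2. It was 1907 when every library was drawn down to the smallest. With the genome-mapped reads given by the study as library sizes, the median of all loci moved by 0.81 to 0.83, and 5165 loci were raised and 12 lowered.

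Raised loci took 40.7% and 27.9% of all counted reads in *urt1-1 xrn4-3*, against 1.52% and 1.67% in *urt1-1*. These loci were chosen as higher in the same libraries, so a larger share follows from the choice and only its size is described. *NIA1* and *NIA2*, which encode the nitrate reductases that reduce nitrate to nitrite, made up much of the *urt1-1 xrn4-3* share. Together they held 26.7% (95% Wilson interval 26.6 to 26.7) and 14.7% (14.7 to 14.8) of counted reads in *urt1-1 xrn4-3*, against 0.0484% (0.0468 to 0.0501) and 0.145% (0.142 to 0.148) in *urt1-1*. These intervals cover counting error only. The libraries of the genotypes did not overlap, and the mean shares were 20.7 ± 8.42% and 0.0967 ± 0.0683% (SD, n = 2 each). The difference of 20.6 percentage points had an exact two-sided permutation p of 0.33, the smallest that 2 libraries against 2 allow. Of all genome-mapped reads, a wider denominator, the 2 genes held 6.71% and 4.003% in *urt1-1 xrn4-3*, against 0.00747% and 0.0234% in *urt1-1*, a difference of 5.34 points. With *NIA1* and *NIA2* set aside, the other raised loci, chosen in the same way, took 19.2% and 15.5% of the remaining reads in *urt1-1 xrn4-3*, against 1.47% and 1.53% in *urt1-1*.

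*NIA2* (AT1G37130, chromosome 1, 14158527 to 14161938 in TAIR10) had 175114 and 79796 CPM in *urt1-1 xrn4-3*, compared with 311 and 716 CPM in *urt1-1*. *NIA1* (AT1G77760, chromosome 1, 29235803 to 29239445) had 125897 and 54626 CPM in *urt1-1 xrn4-3*, compared with 174 and 884 CPM in *urt1-1*. Neither gene had overlapping groups, and both were the 2 most abundant loci of each *urt1-1 xrn4-3* library. The log2 fold changes were 7.95 ± 0.61 for *NIA2* (adjusted p = 4.0e-18) and 7.41 ± 0.72 for *NIA1* (adjusted p = 9.5e-12, edgeR's likelihood ratio test for both). In the stricter quasi-likelihood test the adjusted p was 0.0048 for *NIA2* and 0.0064 for *NIA1*. The 2 paralogs share no window of 21 bases in their longest annotated transcripts, so that a perfectly matching read of at least that length could be placed on only 1 of them. The longest run they have in common is shown to mark how close they come (sense strand, 5′ to 3′, RefSeq transcripts of the TAIR10.1 annotation).
*NIA1* and *NIA2* shared run: aaggaacagaacatggtgaa

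The rest of the nitrate assimilation list moved less. *NIR1*, the nitrite reductase of the next step, had 246 and 149 CPM in *urt1-1 xrn4-3* and 35.6 and 27.0 CPM in *urt1-1* (log2 fold change 2.66 ± 0.50, adjusted p = 3.1e-05, edgeR's likelihood ratio test). *UPM1*, a methyltransferase in the synthesis of siroheme, the cofactor of nitrite reductase, had 72.7 and 30.5 CPM in *urt1-1 xrn4-3* and 8.53 and 5.85 CPM in *urt1-1* (2.83 ± 0.53, adjusted p = 2.0e-05, same test). With *NIA1* and *NIA2* these were the raised members, 4 of 14 tested, and none fell, beside 8.36% raised and 0.918% lowered over all loci. The other 10 members lay between −0.70 (*GLN2*) and 0.60, and the median of the list was 0.57.

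The largest change of all was at *GTE2* (AT5G10550, chromosome 5, 3332855 to 3335232), a bromodomain protein of the global transcription factor group E, a family that binds acetylated histones. It had 6814 and 4293 CPM in *urt1-1 xrn4-3*, compared with 18.8 and 21.2 CPM in *urt1-1*. Its relative *GTE7* (AT5G65630, chromosome 5, 26225832 to 26228449) had 8913 and 5222 CPM in *urt1-1 xrn4-3*, compared with 33.6 and 28.5 CPM in *urt1-1*. Groups were far apart at both, with log2 fold changes of 8.12 ± 0.58 (adjusted p = 7.7e-21) and 7.83 ± 0.56 (adjusted p = 3.7e-21, edgeR's likelihood ratio test). In the stricter quasi-likelihood test the adjusted p was 0.0048 for *GTE2* and for *GTE7*. Only these members of the family were raised, 2 of 12 tested (16.7%, beside 8.36% of all loci), and the 10 others lay between −1.21 (*GTE1*) and 1.11. The 2 transcripts share 10 windows of 21 bases, where a read could have been placed on either gene, and the longest run in common is shown for that reason (sense strand, RefSeq, TAIR10.1).
*GTE2* and *GTE7* shared run: ccatttgtggaagcaaaagaagccc
AT5G10540, annotated as a zincin-like metalloprotease, was raised too (7.48 ± 0.54, adjusted p = 2.3e-21), but 89.0% of *GTE2* lies within it on the opposite strand. It had 90945 and 145817 reads in *urt1-1 xrn4-3* and 210 and 184 reads in *urt1-1*, close to the 88927 and 141581 reads and the 130 and 116 reads of *GTE2*. Reads of the 2 genes cannot be told apart in counts without strand.

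*DGAT3*, a diacylglycerol acyltransferase, followed with 2522 and 1415 CPM in *urt1-1 xrn4-3* and 13.2 and 15.2 CPM in *urt1-1* (7.12 ± 0.54, adjusted p = 9.8e-21, edgeR's likelihood ratio test). *GRF5*, a growth-regulating transcription factor of leaf development, had 658 and 309 CPM in *urt1-1 xrn4-3* and 7.23 and 3.11 CPM in *urt1-1* (6.54 ± 0.68, adjusted p = 2.0e-11). *SERAT2;1*, a serine acetyltransferase of cysteine synthesis, had 1825 and 771 CPM in *urt1-1 xrn4-3* and 14.8 and 19.5 CPM in *urt1-1* (6.24 ± 0.63, adjusted p = 4.5e-12). At these 3 loci the lower *urt1-1 xrn4-3* library exceeded the higher *urt1-1* library many times over. *UGT73B2*, a glucosyltransferase that acts on flavonoids, had 682 and 224 CPM in *urt1-1 xrn4-3* and 6.94 and 7.31 CPM in *urt1-1* (5.99 ± 0.64, adjusted p = 2.0e-11). *PAO5*, a polyamine oxidase, had 310 and 549 CPM in *urt1-1 xrn4-3* and 6.65 and 7.49 CPM in *urt1-1* (5.92 ± 0.76, adjusted p = 4.5e-08).

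Among the 12 most raised loci, *EDA21*, a gene known from embryo sac development, and AT4G07786 rest on few reads. *EDA21* had 4 and 48 reads in *urt1-1 xrn4-3* and 0 in either *urt1-1* library, and AT4G07786 had 3 and 48 reads in *urt1-1 xrn4-3* and 0 in either *urt1-1* library. With a floor of 3 counts per *urt1-1* library they were at least 1.79-fold and at least 1.72-fold higher. Neither passed the quasi-likelihood test (adjusted p = 0.208 and 0.109). Without *urt1-1* replicate 1 their adjusted p in the likelihood ratio test was 0.255 and 0.17, without *urt1-1* replicate 2 it was 0.162 and 0.0935, and without *urt1-1 xrn4-3* replicate 2 that of *EDA21* was 0.247. The 10 other most raised loci passed under every alternative that gave a value.

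**Figure D1:**
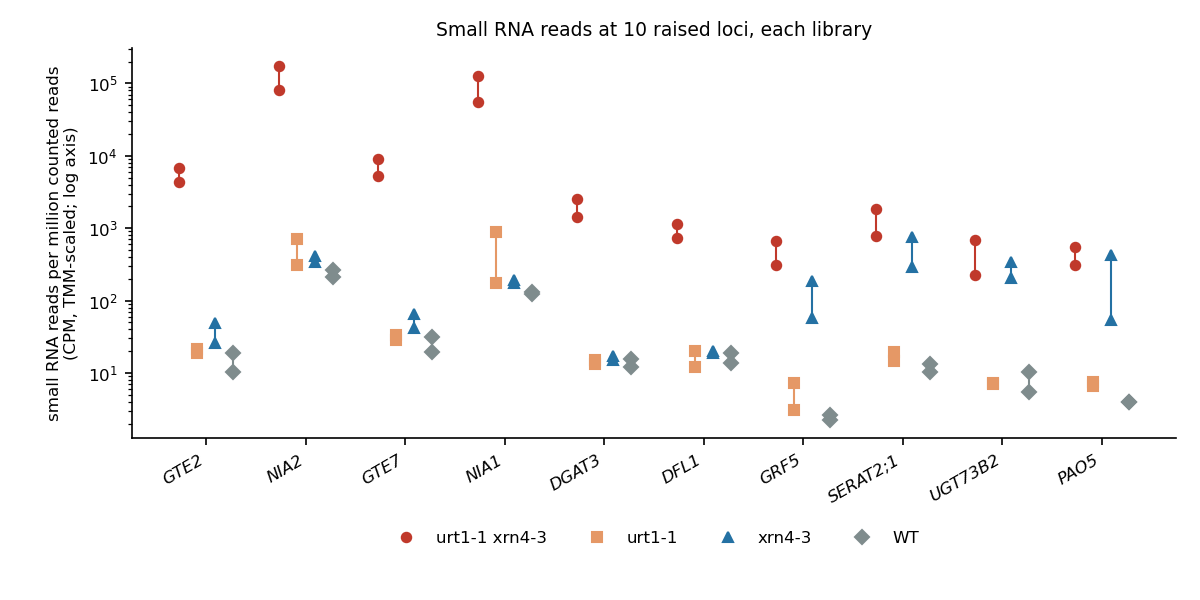
Small RNA levels (CPM, TMM-scaled, log axis) at 10 of the raised loci in each of the 8 libraries. Points are libraries, and a line joins the 2 libraries of a genotype. At *GTE2*, *NIA2*, *GTE7*, *NIA1*, *DGAT3* and *DFL1* the *urt1-1 xrn4-3* libraries lie far above those of the other genotypes, whereas at *GRF5*, *SERAT2;1*, *UGT73B2* and *PAO5* the *xrn4-3* libraries are high as well.

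The same mutation was then examined where URT1 was present, in *xrn4-3* against WT, a comparison that shares no library with the first. It raised 1035 loci (4.19%) and lowered 64 (0.259%, edgeR's likelihood ratio test), with 493 (1.99%) and 5 (0.0202%) by the quasi-likelihood test. The raised count was 560 without *xrn4-3* replicate 2, 1631 without *xrn4-3* replicate 1, 478 without WT replicate 1 and 401 without WT replicate 2. In all, 799 loci were raised in both backgrounds, which is 38.7% of the loci raised without URT1 and 77.2% of those raised with it. Without *xrn4-3* replicate 2 the shared loci numbered 343 (13.9% and 61.2%), without WT replicate 1 411, without WT replicate 2 361, without *urt1-1* replicate 1 432 and without *urt1-1 xrn4-3* replicate 1 530, and the quasi-likelihood test gave 428. No locus was called in opposite directions with all libraries, and 2 were without *xrn4-3* replicate 2. Across all 24722 loci the changes in the 2 backgrounds had a Pearson r of 0.62, as a description, since loci share the same libraries.

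The 799 shared loci, chosen as raised in both, changed by a median of 2.68 on the log2 scale in the *urt1-1* background and 2.42 in the WT background. *GRF5* had 57.0 and 186 CPM in *xrn4-3*, compared with 2.22 and 2.61 CPM in WT. *SERAT2;1* had 293 and 759 CPM in *xrn4-3*, compared with 10.4 and 13.2 CPM in WT. *UGT73B2* had 203 and 346 CPM in *xrn4-3*, compared with 10.4 and 5.52 CPM in WT. The *xrn4-3* libraries exceeded WT at all 3, with log2 fold changes of 5.65 ± 0.69, 5.48 ± 0.63 and 5.10 ± 0.63 (adjusted p = 7.3e-09, 9.5e-10 and 8.6e-09, edgeR's likelihood ratio test). *PAO5* had 54.2 and 419 CPM in *xrn4-3*, compared with 3.93 and 3.96 CPM in WT (5.90 ± 0.76, adjusted p = 1.0e-07). None of these 4 loci had an interaction past the threshold.

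The 1267 loci called only without URT1 (2120 without *xrn4-3* replicate 2) changed there by a median of 1.82 and 0.69 in the WT background, where 91.9% of them were above 0, against 53.8% of all loci tested. Being called in 1 background only does not show a difference between backgrounds. The difference itself was tested as an interaction, the change without URT1 minus the change with URT1. It passed at 22 loci with a higher value without URT1 (0.089%) and 8 with a lower value (0.0324%) in edgeR's likelihood ratio test. None passed the quasi-likelihood test, in which the smallest adjusted p was 0.0859 and 1151 loci (4.66%) had an unadjusted p under 0.05, against 1286 (5.2%) in the likelihood ratio test and 862 in DESeq2, which called 21 and 5. The 22 became 9 without *urt1-1* replicate 1, 11 without *urt1-1* replicate 2, 81 without *xrn4-3* replicate 2 and 50 without WT replicate 2. The 8 became 53 without *xrn4-3* replicate 1 and 93 without *xrn4-3* replicate 2, and ranged between 2 and 6 with another library left out.

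Of the 22 loci, 21 were raised in *urt1-1 xrn4-3* against *urt1-1* and 0 were raised in *xrn4-3* against WT. The most abundant were the loci described above. *NIA2* had 408 and 345 CPM in *xrn4-3*, compared with 262 and 212 CPM in WT, a log2 fold change of 0.67 ± 0.61 beside the 7.95 without URT1 (interaction 7.29 ± 0.87, adjusted p = 2.0e-10, edgeR's likelihood ratio test). *NIA1* had 191 and 177 CPM in *xrn4-3*, compared with 122 and 133 CPM in WT (0.53 ± 0.72, interaction 6.89 ± 1.01, adjusted p = 2.2e-06). Neither was called in *xrn4-3*. *DGAT3* had 17 and 15.0 CPM in *xrn4-3*, compared with 15.6 and 12.1 CPM in WT (0.21 ± 0.54, interaction 6.91 ± 0.77, adjusted p = 3.3e-12). *GTE2* had 26.0 and 48.9 CPM in *xrn4-3*, compared with 19.1 and 10.2 CPM in WT (1.35 ± 0.59, interaction 6.77 ± 0.83, adjusted p = 3.3e-10), and its overlapping neighbour AT5G10540 had an interaction of 6.77 ± 0.76 (adjusted p = 6.5e-12). The interactions of *NIA1*, *NIA2*, *GTE2*, *GTE7*, AT5G10540, *DGAT3*, *DFL1* and *HSP70* passed with each of the 8 libraries left out in turn.

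Apart from *NIA1*, *NIA2*, *GTE2*, *GTE7*, AT5G10540 and *DGAT3*, the other 16 of the 22 shared no run longer than 18 bases with *NIA1*, *NIA2*, *GTE2*, *GTE7* or *DGAT3* on either strand, so that no read of 21 bases from those genes could match them perfectly, though a shorter read could. The next 2 loci were chosen after their values were seen. *DEL1*, an atypical E2F factor that represses endoreduplication, had 53.2 and 27.4 CPM in *urt1-1 xrn4-3* and 1.59 and 2.01 CPM in *urt1-1*. The libraries with URT1 held 1.89 and 1.21 CPM (*xrn4-3*) and 1.33 and 1.25 CPM (WT), so that *urt1-1 xrn4-3* alone was high (interaction 4.25 ± 0.80, adjusted p = 3.1e-04, edgeR's likelihood ratio test, and 0.0553 without *urt1-1* replicate 1). *GUN4*, a protein of tetrapyrrole synthesis, had 520 and 472 CPM in *urt1-1 xrn4-3*, compared with 15.6 and 19.7 CPM in *urt1-1*. Its levels in the other genotypes were 15.9 and 40.6 CPM for *xrn4-3*, against 9.19 and 10 CPM for WT. Its rise without URT1 (4.81 ± 0.56, adjusted p = 1.1e-10) passed under every alternative, but its interaction (3.25 ± 0.79, adjusted p = 0.046) was lost with 7 of the 8 libraries left out in turn.

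**Figure D2:**
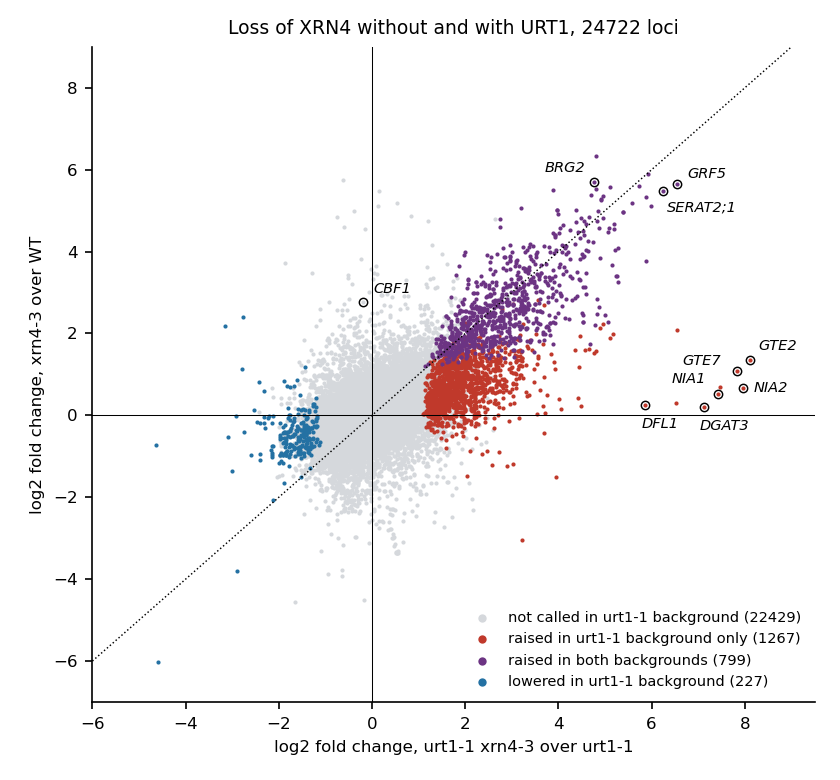
Log2 fold change of small RNA reads on loss of XRN4 without URT1 (x axis, *urt1-1 xrn4-3* over *urt1-1*) and with URT1 (y axis, *xrn4-3* over WT), for 24722 loci. Each point is a locus, coloured by its calls, and the dotted line marks equal change. The 799 shared loci, chosen as raised on both axes, have a median difference of 0.15 between them, which follows in part from that choice. *NIA1*, *NIA2*, *GTE2*, *GTE7*, *DGAT3* and *DFL1*, labelled with their values known, lie far to the right of the line. They lie between 0.21 (*DGAT3*) and 1.35 (*GTE2*) on the y axis.

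The gene families with several raised members are described next, by counts and medians beside the 8.36% raised and the median of 0.02 over all loci. The families were chosen with earlier results of these data known, and no set test was run. Among GH3 enzymes, which join amino acids to auxin or jasmonate, 4 of 11 were raised and none fell (median 0.98). *DFL1* had 736 and 1152 CPM in *urt1-1 xrn4-3* and 12.2 and 20.3 CPM in *urt1-1* (5.87 ± 0.54, adjusted p = 2.0e-15, edgeR's likelihood ratio test). *WES1* had 274 and 720 CPM in *urt1-1 xrn4-3* and 45.3 and 31.8 CPM in *urt1-1* (3.69 ± 0.58, adjusted p = 1.1e-06). The 6 libraries of the other genotypes spanned 12.2 to 20.3 CPM at *DFL1* and 25.6 to 45.8 CPM at *WES1*, below both *urt1-1 xrn4-3* libraries. Their transcripts share 71 windows of 21 bases, so that some of the reads may belong to either gene. The other raised members, *JAR1* and *GH3.1*, had adjusted p-values of 0.0445 and 0.0371 and did not pass the quasi-likelihood test or DESeq2. They lost the call with 6 and 5 of the 8 libraries left out in turn.

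SMXL proteins are repressors related to the heat shock protein HSP101. SMXL6, SMXL7 and SMXL8 act in strigolactone and SMAX1 in karrikin signalling. In this family 6 of 8 loci were raised and none fell, with a median of 1.80. *SMXL5* had 206 and 398 CPM in *urt1-1 xrn4-3* and 18.4 and 11.0 CPM in *urt1-1* (4.36 ± 0.65, adjusted p = 5.0e-07, edgeR's likelihood ratio test). *SMXL7* had 99.8 and 113 CPM in *urt1-1 xrn4-3* and 7.81 and 8.77 CPM in *urt1-1* (3.68 ± 0.48, adjusted p = 8.0e-10). Groups were well apart at both, and the change in *xrn4-3* against WT was 1.6 ± 0.65 and 0.93 ± 0.48, not called. *SMXL6* (2.08 ± 0.48) also passed under every alternative, whereas *SMXL3* lost the call without either *urt1-1* replicate (adjusted p = 0.064 and 0.076) and *SMXL8* without *urt1-1 xrn4-3* replicate 2 (0.0559) or *urt1-1* replicate 1 (0.153). *SMAX1* (1.35 ± 0.45) lost it with 6 of the 8 libraries left out in turn.

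Among the heat shock proteins, 5 of 15 were raised and none fell (median 1.2). All 5 belong to the HSP70 and HSP90 chaperones. *HSP70* had 216 and 233 CPM in *urt1-1 xrn4-3* and 14.2 and 12.6 CPM in *urt1-1* (4.06 ± 0.49, adjusted p = 1.0e-10, edgeR's likelihood ratio test). *HSP90.1*, the heat-inducible HSP90, had 64.6 and 83.7 CPM in *urt1-1 xrn4-3* and 5.79 and 5.11 CPM in *urt1-1* (3.76 ± 0.48, adjusted p = 2.2e-10). The same genes were low in *xrn4-3* (12.6 and 18.6 CPM, and 6.18 and 7.94 CPM) and in WT (15.9 and 12.2 CPM, and 6.15 and 3.75 CPM). *HSP70B* rose by 3.47 ± 0.46 (adjusted p = 7.3e-10) and AT3G09440, an HSP70 family member, by 2.54 ± 0.50 (adjusted p = 5.6e-05). *HSP70* and AT3G09440 share 16 windows of 21 bases. Of 12 heat shock factors, 3 were raised, all of class B (*HSFB1*, *HSFB2A* and *HSFB2B*, log2 fold changes 1.99 to 2.77), and each lost the call without *urt1-1* replicate 1 (adjusted p = 0.422, 0.111 and 0.0933). *HSFB1* also lost it without *urt1-1 xrn4-3* replicate 2 (0.231) and *HSFB2B* without *urt1-1* replicate 2 (0.0544). Of the raised chaperones, *HSC70-1* (1.81 ± 0.54) lost the call without *urt1-1 xrn4-3* replicate 1 (0.147) or either *urt1-1* replicate (0.22 and 0.21).

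BOI and its relatives BRG1, BRG2 and BRG3 are RING ubiquitin ligases linked to defence and gibberellin responses, and 3 of the 4 were raised (median 3.99). *BRG1* had 65.7 and 75.8 CPM in *urt1-1 xrn4-3* and 1.45 and 2.19 CPM in *urt1-1* (5.29 ± 0.62, adjusted p = 1.2e-11, edgeR's likelihood ratio test). *BRG2* had 182 and 122 CPM in *urt1-1 xrn4-3* and 6.36 and 4.75 CPM in *urt1-1* (4.77 ± 0.62, adjusted p = 6.0e-09). Their changes in *xrn4-3* against WT were 3.26 ± 0.60 and 5.69 ± 0.62, both called. Of 9 clade A PP2C phosphatases, the repressors of abscisic acid signalling, 5 were raised (median 1.88). *PP2CA* had 362 and 245 CPM in *urt1-1 xrn4-3* and 34.7 and 41.6 CPM in *urt1-1* (2.99 ± 0.51, adjusted p = 4.9e-06). *PP2CA* and *ABI2* (2.05 ± 0.43) passed under every alternative, while *ABI1* lost the call without *urt1-1* replicate 1 (0.0776), *HAB1* without *urt1-1* replicate 2 (0.0803) and *HAI1* without *urt1-1 xrn4-3* replicate 1 (0.134) or either *urt1-1* replicate (0.282 and 0.0702). Of 9 bZIP factors of the S1 and C groups, whose translation or activity responds to sucrose, 5 were raised (median 1.38). *BZIP11* had 39.3 and 34.6 CPM in *urt1-1 xrn4-3* and 3.76 and 2.37 CPM in *urt1-1* (3.58 ± 0.59, adjusted p = 1.1e-06), beside 5.17 and 18.6 CPM in *xrn4-3*, compared with 1.19 and 1.04 CPM in WT. It was the only bZIP of the list to pass under every alternative.

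In ethylene signalling, 3 of 14 members were raised and none fell (median 0.84). *EBF1* encodes an F-box protein that marks the ethylene transcription factors EIN3 and EIL1 for degradation. It had 5763 and 5944 CPM in *urt1-1 xrn4-3* and 319 and 486 CPM in *urt1-1* (3.86 ± 0.63, adjusted p = 4.4e-06, edgeR's likelihood ratio test). In *xrn4-3* it had 138 and 507 CPM, against 29.6 and 33.4 CPM in WT (3.36 ± 0.63, adjusted p = 1.2e-04). The *urt1-1* libraries were thus above WT and the *urt1-1 xrn4-3* libraries above all others. The raised members *EBF2* (2.19 ± 0.60) and *EIL1* (1.44 ± 0.43) lost the call without *urt1-1* replicate 1 (adjusted p = 0.302 and 0.347) and without *urt1-1 xrn4-3* replicate 2 (0.0735 and 0.0874). *EIL1* also lost it without *urt1-1 xrn4-3* replicate 1 (0.132) and without *urt1-1* replicate 2 (0.0599), and *EBF2* did not pass the quasi-likelihood test.

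**Figure D3:**
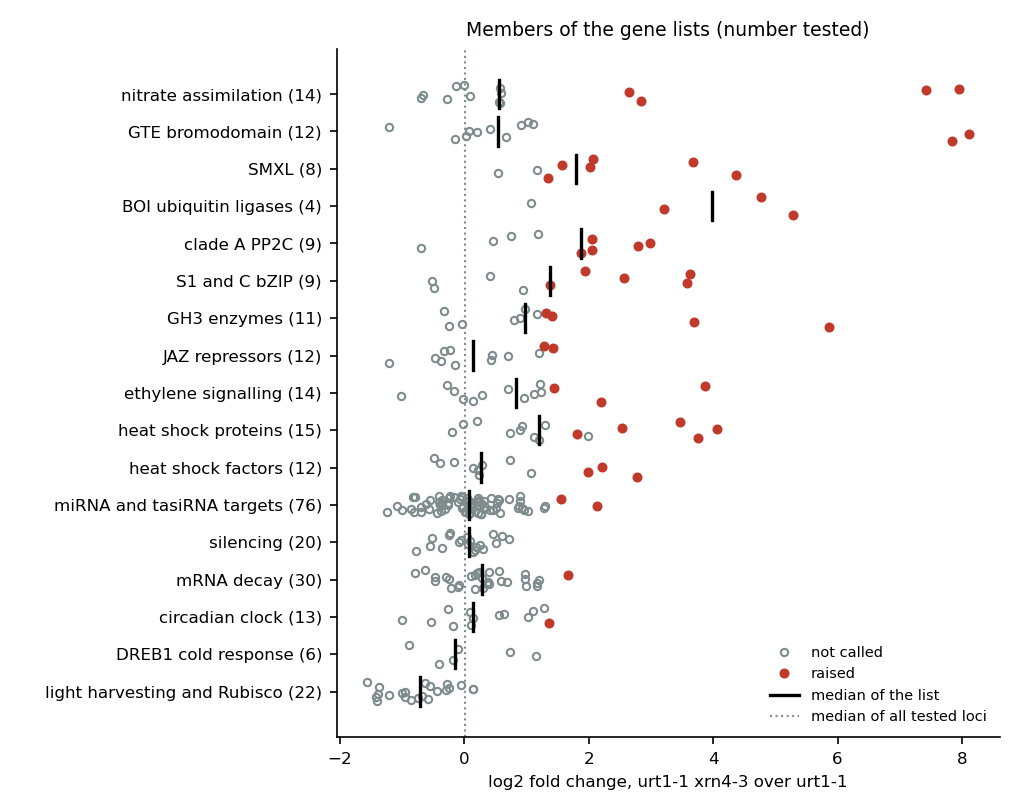
Log2 fold change (*urt1-1 xrn4-3* over *urt1-1*) of each tested member of 17 gene lists, with raised members filled and the number tested in brackets. Bars mark each list's median and the dotted line the median of all tested loci (0.02). Raised members are most frequent among SMXL (6 of 8) and BOI (3 of 4) genes, and absent from the silencing, DREB1 and light harvesting lists.

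Some loci are known targets of other small RNAs. Of 76 targets of microRNAs and trans-acting siRNAs, 2 were raised (2.63%, beside 8.36% of all loci) and none fell (median 0.09). *APS1*, an ATP sulfurylase of sulfate assimilation that miR395 targets, had 277 and 223 CPM in *urt1-1 xrn4-3* and 43.8 and 70.3 CPM in *urt1-1* (2.13 ± 0.51, adjusted p = 0.0016, edgeR's likelihood ratio test, and 0.162 without *urt1-1* replicate 1). Its relatives *APS3* (0.86, adjusted p = 0.339) and *APS4* (0.01, adjusted p = 0.993) were not called. The most complementary site for miR395a is the same in *APS1* and *APS3*, and that of *APS4* pairs more completely. The sequences are shown because the gene that rose and the nearest that did not carry the same letters there. Capitals mark the seed (bases 2 to 8) in the microRNA and bases that form Watson-Crick pairs in the sites (TAIR10.1, RefSeq, gene loci on chromosomes 1, 3, 4 and 5).
miR395a: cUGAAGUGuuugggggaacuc
*APS1* site: GAGUUCCuCCAAACuCUUCAu
*APS3* site: GAGUUCCuCCAAACuCUUCAu
*APS4* site: GAGUUCCuCCAAACACUUCAu
The other raised target was *TCP3*, a TCP transcription factor that miR319 targets, with 30.0 and 18.6 CPM in *urt1-1 xrn4-3* and 9.98 and 6.39 CPM in *urt1-1* (1.56 ± 0.49, adjusted p = 0.0221). It lost the call without *urt1-1 xrn4-3* replicate 1 (adjusted p = 0.338), *urt1-1* replicate 1 (0.1005) or *urt1-1* replicate 2 (0.307).

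*GRF5*, described above, belongs to a family that miR396 targets. The letters GUUCAAGAAAGC, complementary to bases 8 to 19 of miR396a, occur on the sense strand of the longest transcript of *GRF1*, *GRF2*, *GRF3*, *GRF4*, *GRF7*, *GRF8* and *GRF9* and not of *GRF5* or *GRF6*. They occur in 26 of 24311 transcripts searched (0.107%). The site with its neighbouring bases is given for 2 members, with those letters in capitals (TAIR10.1, *GRF4* on chromosome 3 and *GRF7* on chromosome 5).
*GRF4*: aaccGUUCAAGAAAGCcugug
*GRF7*: ccucGUUCAAGAAAGCaugug
*GRF5* was the only member called, beside 8.36% raised and 0.918% lowered over all loci. The other 8 had log2 fold changes between −0.99 (*GRF2*) and 1.04 (*GRF4*), with adjusted p-values of 0.154 or more.

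Loci of the silencing machinery itself, the Argonaute, Dicer-like and RNA-dependent RNA polymerase genes and their partners, gave no call among 20 tested, beside 8.36% raised over all loci. They had log2 fold changes between −0.77 (*SGS3*) and 0.72 (*AGO4*) and a median of 0.08. Of 30 mRNA decay loci, 1 was raised. This was AT1G79090, which encodes the decapping activator PAT1 and had 29.6 and 33.3 CPM in *urt1-1 xrn4-3*, compared with 10.7 and 9.13 CPM in *urt1-1* (1.66 ± 0.42, adjusted p = 0.0022, edgeR's likelihood ratio test). Its adjusted p was 0.0704 without *urt1-1* replicate 1 and 0.104 without *urt1-1* replicate 2. *CAF1A*, a deadenylase, had 27.2 and 17.3 CPM in *urt1-1 xrn4-3* and 10.8 and 8.40 CPM in *urt1-1* (1.2 ± 0.61, adjusted p = 0.256), beside a call in *xrn4-3* against WT (2.62 ± 0.61, adjusted p = 0.0024). The JAZ repressors of jasmonate signalling had 2 raised of 12, neither past the quasi-likelihood test, and the clock list 1 of 13.

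Raised loci had few exons. In the longest annotated transcript, 44.0% of the raised loci and 65.3% of those raised over 8-fold had a single exon, against 18.1% of all tested loci (98.3% of all had a gene model). The raised share was 20.25% of 4409 loci with 1 exon, 11.34% with 2, 7.69% with 3 or 4, 3.73% with 5 to 9 and 1.39% of 4161 loci with 10 or more. The median level in *urt1-1* went the other way, with 3.25 CPM for loci of 1 exon and 7.50 CPM for loci of 10 or more. Transcript length (median 1558 nt for raised and 1636 nt for all loci) and GC content (41.3% and 41.4%) were close. Overlap with another annotated gene was no more frequent among raised loci (24.3%) than among all (28.5%), and the raised share was between 7.90% and 9.12% on each nuclear chromosome. These are descriptions of annotated models, and neighbouring classes were not tested against each other. *NIA2*, *GTE2*, *GTE7* and *DFL1* have 3 exons, *NIA1* and *GRF5* have 4, and *SERAT2;1*, *UGT73B2*, *PAO5* and *GUN4* have 1.

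**Figure D4:**
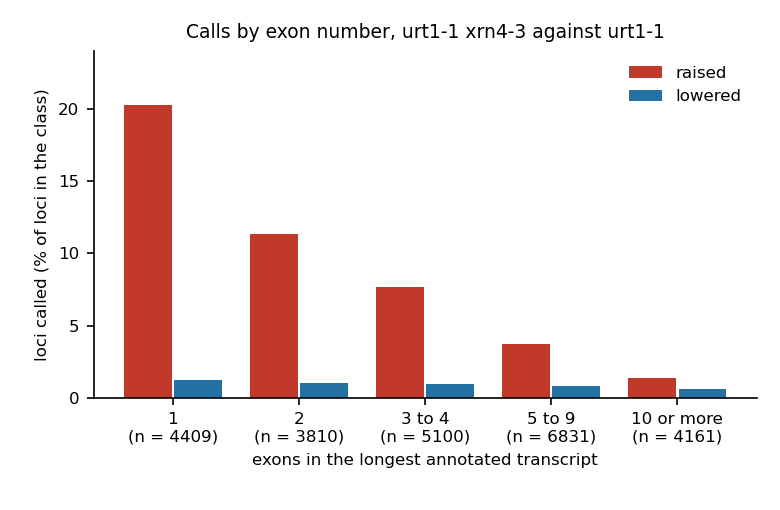
Share of tested loci raised or lowered in *urt1-1 xrn4-3* against *urt1-1* (bars, % of the loci in each class), by the number of exons in the longest annotated transcript, with the number of loci below each class. The raised share falls from class to class between 20.25% at 1 exon and 1.39% at 10 or more, and the lowered share is between 0.62% and 1.2%.

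Lowered loci were fewer and changed less. Their median log2 fold change was −1.58, 33 fell more than 4-fold and 5 more than 8-fold, and their median level was 3.87 CPM in *urt1-1 xrn4-3* and 11.7 CPM in *urt1-1*. Groups did not overlap at 225 of the 227, and both *urt1-1 xrn4-3* libraries lay below both *urt1-1* libraries at 22.6% of all loci. Only 3 were also lowered in *xrn4-3* against WT (3 as well without *xrn4-3* replicate 2), which is 1.32% of the 227 and 4.69% of the 64, although 86.8% of the 227 were below 0 there, against 46.2% of all loci. The count was 138 and 142 without *urt1-1 xrn4-3* replicates 1 and 2, 81 and 90 without *urt1-1* replicates 1 and 2, and 372 and 373 without *xrn4-3* replicates 1 and 2. It also depended on scaling: with the genome-mapped reads given by the study as library sizes, the median of all loci moved by 0.81, 12 of the 227 passed and 224 stayed below 0.

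The locus that fell most was AT1G10745, annotated as a maternally expressed family protein. It had 0.919 and 0.0606 CPM in *urt1-1 xrn4-3* and 9.26 and 11.5 CPM in *urt1-1* (−4.63 ± 0.70, adjusted p = 1.6e-07, edgeR's likelihood ratio test). AT1G47389, an uncharacterized protein, had 0.0766 and 0.273 CPM in *urt1-1 xrn4-3* and 6.51 and 3.84 CPM in *urt1-1* (−4.59 ± 0.64, adjusted p = 9.5e-12). It was also nearly absent in *xrn4-3*, with 0 and 0.173 CPM against 6.89 and 7.50 CPM in WT, and is 1 of the 3 loci lowered in both backgrounds, so that the libraries with *xrn4-3* were all low. AT3G22770, an F-box associated protein, had 5.52 and 5.12 CPM in *urt1-1 xrn4-3* and 53.5 and 31.6 CPM in *urt1-1* (−3.0 ± 0.51, adjusted p = 2.7e-06). *CYP702A6*, a cytochrome P450, had 2.38 and 3.58 CPM in *urt1-1 xrn4-3* and 22.0 and 23.9 CPM in *urt1-1* (−2.92 ± 0.48, adjusted p = 1.0e-06). The groups did not overlap at either locus, and AT3G22770 overlaps AT3G22760 on the opposite strand.

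*BHLH100* and *bZIP4*, both transcription factors, were among the 10 most lowered loci. *BHLH100*, a factor induced by iron deficiency, had 6.67 and 7.82 CPM in *urt1-1 xrn4-3* and 27.6 and 49.9 CPM in *urt1-1* (−2.41 ± 0.49, adjusted p = 1.0e-04, edgeR's likelihood ratio test). *bZIP4* had 4.83 and 5.67 CPM in *urt1-1 xrn4-3* and 21.8 and 41.8 CPM in *urt1-1* (−2.59 ± 0.49, adjusted p = 3.2e-05). The WT libraries were also below both *urt1-1* libraries at each, with 13.4 and 24.5 CPM for *BHLH100* and 10.3 and 17.7 CPM for *bZIP4*. AT4G10603, annotated as a pollen coat protein family member, fell by 2.75 ± 0.59 on the log2 scale (adjusted p = 3.1e-04). The 3 others among the 10 most lowered depended on single libraries, and AT1G43624 also lost the call with all libraries in. Its adjusted p was 0.0503 in the quasi-likelihood test. In the likelihood ratio test it was 0.0808 with genome-mapped reads as library sizes and 0.0686 with reads drawn to the smallest library. *DD46*, a galactosyltransferase family member (−2.90 ± 0.75), had an adjusted p of 0.794 without *urt1-1* replicate 1 and 0.0904 without *urt1-1 xrn4-3* replicate 2. AT1G43624 (−2.42 ± 0.68) had 0.301 and 0.0865 without the same libraries, and AT1G62530 (−2.53 ± 0.54) had 0.0522 without *urt1-1* replicate 2.

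**Figure D5:**
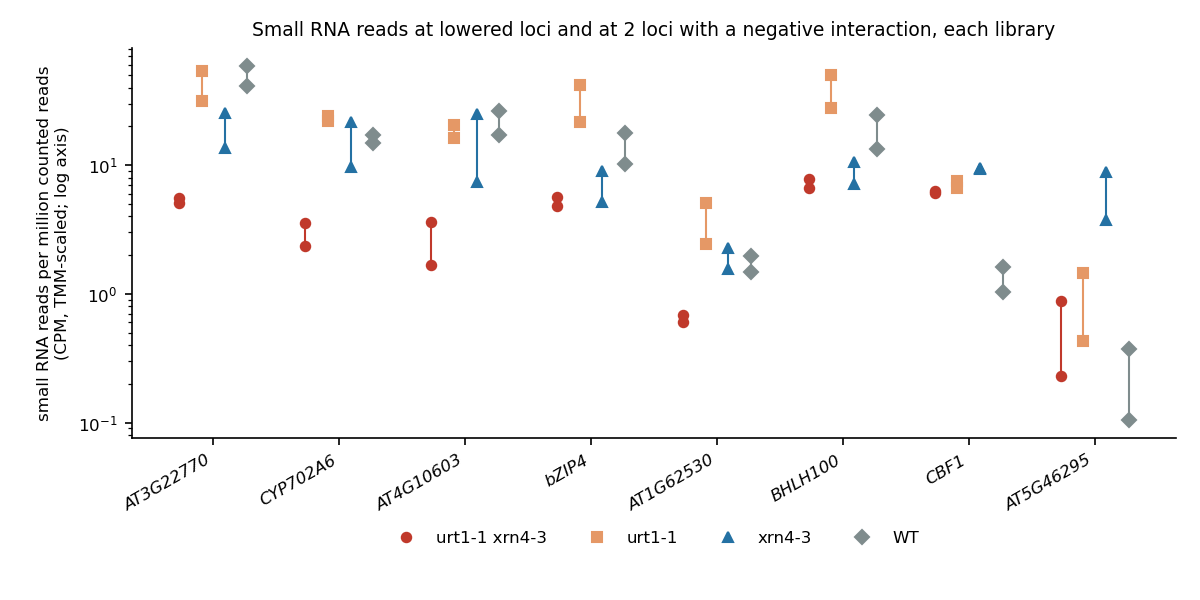
Small RNA levels (CPM, TMM-scaled, log axis) in each of the 8 libraries at 6 of the most lowered loci, and at *CBF1* and AT5G46295. Points are libraries, and a line joins the 2 libraries of a genotype. At *CBF1* and AT5G46295, *xrn4-3* lies above WT while *urt1-1 xrn4-3* does not lie above *urt1-1*.

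The 8 negative interactions included 3 loci raised by XRN4 loss only where URT1 was present. *CBF1*, a transcription factor of cold acclimation, had 6.13 and 6.28 CPM in *urt1-1 xrn4-3* and 6.65 and 7.49 CPM in *urt1-1*, a log2 fold change of −0.18 ± 0.37 (adjusted p = 0.84, edgeR's likelihood ratio test). It had 9.33 and 9.49 CPM in *xrn4-3*, compared with 1.63 and 1.04 CPM in WT (2.78 ± 0.43, adjusted p = 4.3e-08), so that WT alone was low. Its interaction of −2.96 ± 0.57 (adjusted p = 4.4e-04) passed with each library left out in turn, though not with genome-mapped reads as library sizes (adjusted p = 0.221). Its neighbour *DREB1A* had 15.3 and 11.0 CPM in *urt1-1 xrn4-3* and 7.23 and 4.38 CPM in *urt1-1* (1.16 ± 0.43, adjusted p = 0.0677), and 13.1 and 9.67 CPM in *xrn4-3* beside 1.11 and 1.35 CPM in WT (3.20 ± 0.48, adjusted p = 3.5e-08). None of the 6 cold-response factors tested was called without URT1, beside 8.36% raised and 0.918% lowered over all loci. *CBF1* and *DREB1A* share 44 windows of 21 bases, so that reads may belong to either.

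AT5G46295 had 0.23 and 0.879 CPM in *urt1-1 xrn4-3* and 0.434 and 1.46 CPM in *urt1-1*, beside 3.78 and 8.89 CPM in *xrn4-3*, compared with 0.37 and 0.104 CPM in WT (interaction −5.21 ± 1.17, adjusted p = 0.008, edgeR's likelihood ratio test). AT1G72620, an alpha/beta-hydrolase, had 1.38 and 1.03 CPM in *urt1-1 xrn4-3* and 2.89 and 2.19 CPM in *urt1-1*, beside 9.96 and 5.61 CPM in *xrn4-3*, compared with 0.667 and 1.98 CPM in WT (−3.70 ± 0.78, adjusted p = 0.0042). At these loci *xrn4-3* alone was high. Both lost the call with some library left out, AT5G46295 without *urt1-1* replicate 2 or WT replicate 2 and AT1G72620 without *urt1-1 xrn4-3* replicate 2, *urt1-1* replicate 1 or WT replicate 1.

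Chloroplast loci and nuclear loci of photosynthesis took a smaller share of counted reads in *urt1-1 xrn4-3*, with 1 call, and these shares move with the reads at *NIA1* and *NIA2*. The 88 chloroplast loci held 3.55% and 1.97% of counted reads in *urt1-1 xrn4-3*, against 6.44% and 6.38% in *urt1-1*. Their median log2 fold change was −1.03, with 0 raised and 1 lowered (1.14%), beside 8.36% raised and 0.918% lowered over all loci. Of the reads outside *NIA1* and *NIA2* the chloroplast loci held 4.84% and 2.31% in *urt1-1 xrn4-3*, against 6.45% and 6.39% in *urt1-1*. The same share was 5.91% and 5.51% in *xrn4-3* and 7.88% and 4.86% in WT, so that WT replicate 2 was close to 1 *urt1-1 xrn4-3* library. The lowered locus was ATCG00490, at −1.62. The 22 nuclear genes for light harvesting and Rubisco held 0.730% and 0.780% of counted reads in *urt1-1 xrn4-3*, against 1.08% and 1.01% in *urt1-1*, with no call and a median of −0.71. Outside *NIA1* and *NIA2* their shares were nearer, at 0.995% and 0.915% in *urt1-1 xrn4-3*, against 1.08% and 1.01% in *urt1-1*. None of these loci was at 0 in any library. Their part in the other results was not tested, but leaving out the chloroplast and mitochondrial loci gave 2074 raised and 231 lowered loci. Of 10 flower and seed marker genes, 6 were in the table, with 0.00132% and 0.00204% of counted reads in *urt1-1 xrn4-3* and 0.00186% and 0.00165% in *urt1-1*, and none was called.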

How the data were processed

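Small RNAs of 8 libraries (2 per genotype) had been sequenced by the authors, who deposited whole-number counts of reads per locus, not normalized. The submitters' processing notes name CASAVA 1.8.2, Bowtie 1.0.0, bedtools 2.17.0, edgeR 3.26.5 and TAIR10. The 8 deposited columns of depth-scaled reads (CPM) were not used. Groups follow the labels. Loci with enough reads by edgeR's filterByExpr (24722 of 24859) were fitted over all 8 libraries with TMM scaling in edgeR 4.0.16 (R 4.3.3), with likelihood ratio tests for *urt1-1 xrn4-3* against *urt1-1*, *xrn4-3* against WT and their difference, and Benjamini-Hochberg adjustment over all loci. The quasi-likelihood test, DESeq2 1.42.0, other scalings, filters, blocks and left-out libraries were alternatives. Counting identical loci once was chosen after seeing the data. Fits were tested on simulated data with few changed loci, as many raised as lowered. Both tests called more unchanged loci there than the threshold sets, the likelihood ratio test more so.

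Named loci were *URT1*, *XRN4*, the 12 most raised and 10 most lowered loci past the threshold (a mean of at least 10 reads, groups not overlapping), the 5 largest positive and 5 largest negative interactions, and members of 18 gene lists, called members first, of which 274 of 296 symbols were found in RefSeq. *DEL1* and *GUN4* were named after their values were seen. The comparison and lists were chosen with earlier results of these data known. RefSeq (TAIR10.1) gave gene models and sequences by locus code, for 24311 of the tested loci. Depth was between 6045353 and 30064224 counted reads, and Wilson 95% intervals cover counting error only. Figures and tables were made with Python 3.11.15.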

Additional observations from a re-analysis of the deposited data

Results flagged for a closer look

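At 30 loci the change on loss of XRN4 differed between the background without URT1 and the background with it, by edgeR's likelihood ratio test of that difference itself (adjusted p under 0.05 over 24722 loci). The values are log2 differences, the change in *urt1-1 xrn4-3* over *urt1-1* minus the change in *xrn4-3* over WT. The value was higher without URT1 at *NIA2* (7.29), *DGAT3* (6.91), *NIA1* (6.89), AT5G10540 (6.77), *GTE2* (6.77), *GTE7* (6.75), *GA3OX4* (6.26), *DFL1* (5.61), AT2G40450 (5.44), *DEL1* (4.25), *WES1* (4.11), AT5G48050 (3.99), *HSP70* (3.91), AT5G56410 (3.73), AT4G31650 (3.65), *UMAMIT42* (3.53), *HSP90.1* (3.26), *GUN4* (3.25), AT2G28510 (3.25), *UFO* (2.77), *SMXL7* (2.75), AT1G13730 (2.44). At *GA3OX4*, AT2G40450, *WES1*, AT5G56410, *UMAMIT42*, *UFO* and AT1G13730 the change in *xrn4-3* over WT was negative. Of these, only AT5G56410 was called lowered in *xrn4-3* against WT, and it was not called raised without URT1. The value was lower without URT1 at *BG3* (−2.63), *CYP702A6* (−2.90), *CBF1* (−2.96), AT1G72620 (−3.70), AT1G10745 (−3.91), AT3G42628 (−3.93), *LCR18* (−5.17), AT5G46295 (−5.21). None of the 30 passed the quasi-likelihood test, in which the smallest adjusted p was 0.0859, and 9 of them passed with each library left out in turn. Causes were not tested.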

How the results depend on the processing

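Of the 74 changes named for single loci, 43 passed under each of the 23 alternatives that gave a value, and 14 of the other 31 were lost only with a library left out. With libraries left out in turn, raised loci numbered 778 to 2463, lowered loci 81 to 373, *xrn4-3* against WT 401 to 1631 raised and 25 to 192 lowered, interactions 9 to 81 positive and 2 to 93 negative, and the *NIA1* and *NIA2* share differed by 14.65 to 26.56 points. The quasi-likelihood test gave 70 lowered loci, 493 raised and 5 lowered in *xrn4-3* against WT, and 0 interactions of either sign (1151 at an unadjusted p under 0.05, 1286 in the likelihood ratio test). Lowered loci numbered 149 with library size only (22 in *xrn4-3* against WT) and 358 with the 4 compared libraries alone. Genome-mapped reads as library sizes gave 5165 raised, 12 lowered, 21 lowered in *xrn4-3* against WT, 0 negative interactions and a *NIA1* and *NIA2* difference of 5.342 points. At least 10 reads in every library left 40 lowered in *xrn4-3* against WT and 13 and 3 interactions. DESeq2 and reads drawn to the smallest library gave 5 and 3 negative interactions. The sources do not say that a replicate number marks a shared growth time across genotypes, and with 2 libraries per group the samples were not taken as paired (r = 0.374 for same-numbered deviations). With the replicate block, 2495 loci were raised and 439 lowered, with 41 and 15 interactions, and the quasi-likelihood test with the block gave 148 lowered, 15 lowered in *xrn4-3* against WT, and 3 and 0 interactions. Signs turned only at uncalled changes: AT5G46295 (0.26 with genome-mapped reads, −1.93 to 0.47 with a library left out), *CBF1* (0.62 with genome-mapped reads, 0.038 with reads drawn to the smallest library) and *URT1* (−0.33 to 0.40 with a library left out). Causes were not tested. Depth limits loci of few reads, such as *EDA21*.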
